A study of Mus musculus with 15 samples.

Results

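The mandibular branch of the first branchial arch was compared between mouse embryos that had lost Dlx5 and Dlx6 and wild-type (WT) embryos at E10.5, a stage of midgestation. The comparison used 6 of the series' 15 arrays, chosen by their titles. They were 3 arrays of the Dlx5/6 mutant mandibular branch and 3 of the WT mandibular branch, and genes lost and gained were sought across the whole array. The other 9 arrays, 3 KO maxillary (the labels do not name the gene) and 6 WT maxillary, entered the filter on low signal, the normalization and the common estimate of spread. Normalizing and fitting the 6 mandibular arrays alone gave 354 genes called, 332 of them among the 440 reported below. The WT maxillary signals are also quoted for some genes. The labels gave no allele, strain, litter or sex for either group. Their shared description was a plan, in which several arches were expected to be needed for each experiment, and it did not say whether embryos were pooled. Nothing in the labels said that the 3 arrays of a group came from separate embryos, so that every p-value below reflects array-to-array spread within a group, and this spread may be technical.

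The first arch is built mainly of cranial neural crest mesenchyme under a sheet of epithelium, with a core of mesoderm that makes muscle and vessels. Its maxillary branch forms the upper jaw and its mandibular branch the lower jaw. Dlx genes encode homeodomain transcription factors that lie as neighbouring pairs and are expressed in nested domains of the arch, Dlx1 and Dlx2 in both branches and Dlx5 and Dlx6 toward the mandibular end. Mice without Dlx5 and Dlx6 are known for a lower jaw that takes on the form of an upper jaw.

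The 6 mandibular arrays were alike in quality. Their median signals ran from 26.6 to 29.4 units. Correlations were taken after normalization over the 31643 probe sets that passed the filter on low signal. They ran from 0.986 to 0.990 within a group and from 0.980 to 0.986 between the groups. All 23 listed factors of crest and arch mesenchyme passed the filter on low signal. Of 15 Hox genes, which mark tissue behind the first arch, 13 were on the array, 4 passed and none was called. Of 8 heart genes 3 passed, and Myl7, Myl2, Myh6, Tnnt2 and Nppa did not. Genes given below are the 20 largest rises and falls, the Dlx genes, genes that crossed the background level and leading members of fixed lists. A few further called members, among them Msx1, Barx1, Foxf1, Lhx8, Irx3, Eya1, Meis1, Meis2, Osr2, Ebf3, and those named by family or chromosome, were chosen after their values were seen.

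Dlx5 and Dlx6, the genes named in the mutant's label, were at background in all mutant arrays. The Dlx5 signal was 11.0, 13.9 and 7.96 in the mutant arrays and 770.3, 721 and 689.9 in the WT arrays. The Dlx6 signal was 2.62, 5.07 and 2.28 in the mutant arrays and 196, 256 and 298 in the WT arrays. The groups were far apart for both genes. Every mutant value lay below the 40th percentile of its array, so only a limit can be given, and the highest such percentile (18.9 units) is 2.61% of the WT mean for Dlx5 and 7.59% for Dlx6. Log2 changes below are differences of log2(signal + 32) after quantile normalization, ± the SE from the limma model, and the added 32 understates the changes of dim genes. On that scale Dlx5 fell by 4.13 ± 0.12 (limma adjusted p = 4.3e-16) and Dlx6 fell by 2.96 ± 0.18 (adjusted p = 1.6e-10). Each rested on 1 measured probe set, and the position of these probes relative to the deleted part is not known from the sources at hand. In tissue RNA, fewer cells of a type and less RNA per cell cannot be told apart.

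Across the array, 841 of 31643 probe sets differed between mutant and WT at an adjusted p under 0.05 (limma, Benjamini-Hochberg), which is 2.66%. They came to 445 higher and 396 lower in the mutant. Of the 841, 80 had no single gene symbol and are not named. Each of 13934 genes was read through its brightest probe set, with those ending in _x_at or _s_at used only where no other was kept. Of these genes, 440 were called (3.16%), 220 higher (1.58%) and 220 lower (1.58%). The numbers of calls in the 2 directions were thus equal, but on the log2(signal + 32) scale more of the large changes were falls. At least a 2-fold change was seen for 34 genes lower and 20 higher, and a 4-fold change for 8 lower and 3 higher. These 8 include the transcripts Dlx5, Dlx6, Dlx1as and Dlx6os1. In deposited signal Prap1, at background in WT, rose to 128.6 times its WT mean. Most calls were small, since 142 of the higher and 121 of the lower genes changed by under 1.5-fold. The share of higher probe sets was 52.9%, 63.3% when arrays were shifted to a common median over the filtered probe sets, and 48.0% when that median was taken over every probe set. Without mutant replicate 3 the count of genes was 289, and without mutant replicate 2 it was 293.

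The mutant and WT arrays did not overlap for any of the 220 higher genes, nor for 218 of the 220 lower genes. Among all genes tested 9.24% were higher and 10.8% lower without overlap, so this alone does not set a gene apart. Of the 440 genes, 209 kept their call whichever of the 6 arrays was left out, 106 higher and 103 lower. A measured gene was called more often when it was bright. Of the dimmest 25% of genes 0.603% were called, with a median SE of 0.197, and of the brightest 25% 5.94%, with a median SE of 0.0779. Of the 440 genes, 285 had a second measured probe set. For 99 of them another probe set was called in the same direction and for 1 in the opposite direction. For 186 of the 285 no other probe set was called in the same direction, and for 178 at least 1 other changed by under 0.5 times as much or the opposite way. Many such probe sets are given beside the genes named below, but not all. Those left out include the other probe sets of Tshz2 (-0.64), Foxf1 (-0.27), Asb4 (-0.21) and Scd1 (0.39), none of them called.

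**Figure D1:**
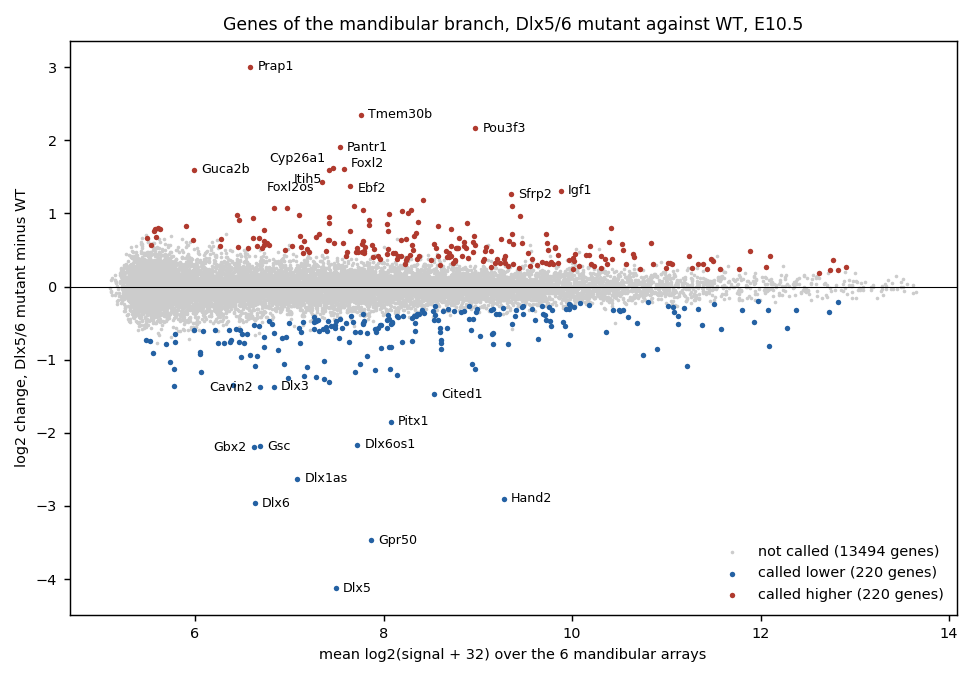
Log2 change (mutant minus WT, vertical axis) against mean log2(signal + 32) over the 6 mandibular arrays (horizontal axis) for all 13934 genes tested. Blue points are the 220 genes called lower and red points the 220 called higher, with the largest named. The falls of Dlx5, Gpr50, Dlx6 and Hand2 reach farther from 0 than any rise but that of Prap1.

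Among the Dlx genes the loss went beyond the 2 genes of the mutant's label. Of 8 members measured, including the antisense transcripts Dlx1as and Dlx6os1, 6 fell and 1 rose, with a median log2 change of -1.77 against -0.01 over all genes. Dlx3 and Dlx4, the neighbouring pair that is active nearest the tip of the arch, both fell. Dlx3 gave 37.2, 35.7 and 42.0 in the mutant arrays and 170.03, 143 and 150.4 in the WT arrays, a log2 change of -1.37 ± 0.15 (limma adjusted p = 2.4e-06). Dlx4 gave 7.17, 9.10 and 0.884 in the mutant arrays and 36.8, 41.5 and 53.6 in the WT arrays, and fell below background in the mutant (-1.03, adjusted p = 3.4e-04). Dlx6os1, the transcript antisense to Dlx6, kept 15.7% of its WT signal, 67.4, 57.6 and 74.1 against 394, 444 and 428, and so stood higher than Dlx5 and Dlx6 in the mutant relative to WT. Dlx1as, antisense to Dlx1, kept 7.03%, with 19.8, 26.2 and 20.3 in the mutant arrays and 232, 384 and 329 in the WT arrays. Its mutant values lay close to the 40th percentile of the arrays (at most 18.9 units), so part of the 7.03% may be background. Dlx1 itself moved the other way, with 776, 842 and 823 in the mutant arrays and 481, 489.6 and 476 in the WT arrays and no overlap (0.72 ± 0.07, adjusted p = 4.3e-07). The sense and antisense transcripts of the Dlx1 locus therefore changed in opposite directions on this array. No call was made for Dlx2, the partner of Dlx1 (0.28 ± 0.10, adjusted p = 0.15), although with array weights it was called higher (0.33, adjusted p = 0.04).

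Homeodomain proteins of the Dlx type are known to bind cores such as TAATTA and TAATTG. Promoter windows of 300 bases, from 250 before to 50 after a start site, were read from RefSeq (build GRCm38.p6). They show, where a window was given, which strongly changed genes carry such letters close to their start and which do not. Windows were given for 169 of the 220 lower and 172 of the 220 higher genes. Dlx5, Dlx6, Dlx3, Pitx1 and Irx5 were among the genes without a window. TAATTA, and TAATTG in either orientation (CAATTA on the other strand), are in capitals, and sequences run 5′ to 3′ on the gene's strand. Hand2 (chr8:57320733-57321032, plus strand), which encodes a basic helix-loop-helix factor of the lower jaw and fell most among genes outside the Dlx family after Gpr50, has 1 match of each kind. Dlx6os1 has 2 windows on the minus strand, chr6:6861634-6861933 (window 1) and chr6:6869484-6869783 (window 2), with 4 matches together. Cyp26a1 (chr19:37697558-37697857, plus strand), a gene that rose, has 1 match.
Hand2: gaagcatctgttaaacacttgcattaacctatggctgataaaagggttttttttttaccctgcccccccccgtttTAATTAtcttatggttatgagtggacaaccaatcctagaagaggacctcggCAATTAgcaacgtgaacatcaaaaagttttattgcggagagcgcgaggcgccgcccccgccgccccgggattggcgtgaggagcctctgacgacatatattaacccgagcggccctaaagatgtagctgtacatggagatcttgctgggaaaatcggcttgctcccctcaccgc
Dlx6os1 window 1: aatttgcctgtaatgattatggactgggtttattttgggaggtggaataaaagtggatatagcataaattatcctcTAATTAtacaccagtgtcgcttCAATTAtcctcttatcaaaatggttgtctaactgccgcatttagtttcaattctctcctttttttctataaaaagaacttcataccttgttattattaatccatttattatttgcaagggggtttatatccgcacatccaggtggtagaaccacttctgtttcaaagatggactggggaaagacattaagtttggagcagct
Dlx6os1 window 2: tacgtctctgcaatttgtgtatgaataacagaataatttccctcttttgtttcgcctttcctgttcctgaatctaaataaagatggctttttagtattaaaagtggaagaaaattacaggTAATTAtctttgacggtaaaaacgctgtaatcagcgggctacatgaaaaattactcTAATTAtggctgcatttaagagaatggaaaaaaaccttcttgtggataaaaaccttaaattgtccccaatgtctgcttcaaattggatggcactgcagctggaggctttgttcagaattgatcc
Cyp26a1: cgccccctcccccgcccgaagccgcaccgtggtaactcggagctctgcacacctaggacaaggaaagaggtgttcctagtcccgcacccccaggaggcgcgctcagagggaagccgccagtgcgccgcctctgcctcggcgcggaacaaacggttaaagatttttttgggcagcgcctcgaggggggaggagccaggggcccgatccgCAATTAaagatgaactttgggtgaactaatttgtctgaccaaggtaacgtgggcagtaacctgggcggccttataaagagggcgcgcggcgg
Lhx6, Sgk1 and Trpm1 also have a window with a match. The windows of Gpr50, Gbx2, Gsc, Cited1, Rgs5, Pou3f3, Foxl2, Tmem30b, Prap1 and Sfrp2 in the same table held neither core. Over all measured genes 2.68% of 14266 windows held TAATTA and 4.99% held TAATTG. Among genes called lower, 4.82% of 228 windows held TAATTA, and among genes called higher 1.84% of 217. TAATTG was found in 4.82% and 5.53%. A match describes the letters of these windows and is not a measured binding site, and several windows can belong to 1 gene.

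Of 16 measured transcription factors of the ventral, distal arch, 10 fell and 2 rose, with a median log2 change of -0.51. Hand2 gave 199, 198 and 186 in the mutant arrays and 1685, 1702 and 1606 in the WT arrays. The mutant arrays kept 11.7% of the WT signal and were close together, with a log2 change of -2.90 ± 0.13 (limma adjusted p = 6.0e-13). The other Hand2 probe set fell by 1.84. Its relative Hand1 fell as well, with 37.9, 33.1 and 35.4 against 112, 118 and 113 (-1.09 ± 0.16, adjusted p = 1.5e-04).

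Gbx2 and Gsc, homeobox genes of the lower arch, fell to about the background level. Gbx2 gave 21.4, 21.1 and 1.55 in the mutant arrays and 189, 170.1 and 184 in the WT arrays, and Gsc gave 22.8, 4.31 and 22.3 in the mutant arrays and 194, 203 and 175 in the WT arrays. The groups were separate by a wide margin for both, with log2 changes of -2.20 ± 0.17 and -2.19 ± 0.19. Pitx1, a homeobox gene of the jaw and hindlimb, kept 22.6% of its WT signal, 121, 85.2 and 124 against 548, 468 and 450.1 (-1.85 ± 0.14), and its other probe set fell by 1.23. The transcription cofactor gene Cited1 kept 32.1%, with 194, 198 and 178 in the mutant arrays and 568, 610.04 and 598 in the WT arrays (-1.47 ± 0.10). Smaller falls were those of the homeobox genes Msx1 (-0.57) and Barx1 (-0.40), a gene of the molar field, and of the forkhead gene Foxf1 (-0.44). Their calls were lost in 4, 4 and 6 of the 6 fits that each left out 1 array (adjusted p up to 0.11, 0.11 and 0.18). The 2 members that rose were the T-box repressor genes Tbx2, 565, 605 and 626 against 368, 374 and 341 (0.69 ± 0.09, adjusted p = 2.6e-05), and Tbx3 (0.42 ± 0.10, adjusted p = 0.017). The call of Tbx3 was lost in 4 of these fits, with adjusted p up to 0.086, and its 3 other probe sets gave 0.12 to 0.47, with 2 called.

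Outside the transcription factors, the largest fall was that of Gpr50, an X-linked orphan receptor gene of the melatonin receptor family. It gave 36.9, 29.2 and 48.0 in the mutant arrays and 747, 773 and 741 in the WT arrays, so the mutant kept 5.05% of the WT signal (-3.47 ± 0.14, limma adjusted p = 1.2e-13), and its other probe set fell by 1.96. Cavin2, which encodes a coat protein of caveolae, gave 27.8, 40.4 and 26.9 in the mutant arrays and 137, 124 and 151 in the WT arrays (-1.38 ± 0.15), and both of its other probe sets were also called lower. Rgs5, a regulator of G-protein signalling known from pericytes, gave 69.9, 90.5 and 68.8 in the mutant arrays and 255, 235 and 237 in the WT arrays (-1.31 ± 0.15). The 7 other mural cell genes measured were not called, and the summed deposited signals of the 8 overlapped between the groups (1100 to 1229 in mutant and 1142 to 1255 in WT arrays). The T-box gene Tbx22, known from cleft palate, gave 84.1, 67.0 and 67.8 in the mutant arrays and 229.9, 204 and 249 in the WT arrays (-1.27 ± 0.12). Efemp1, a fibulin gene, fell by 1.25, the collagen gene Col8a2 by 1.22, the reductase gene Zadh2 by 1.21 and the channel gene Trpm1 by 1.35. The other probe set of Trpm1 gave -0.11 and was not called, and those of Rgs5 gave -0.99 to -0.37, with 2 of 3 called. Every mutant array lay below every WT array for these genes, which the choice of genes required.

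Genes that rose were led by Prap1, which encodes a secreted proline-rich protein known from gut and uterus. It gave 237, 248 and 235 in the mutant arrays and 2.23, 1.12 and 2.25 in the WT arrays, a step from background to a clear signal on all 3 arrays, and it was at 1.32 to 2.93 on the 6 WT maxillary arrays. The log2 change was 3.00 ± 0.14 (limma adjusted p = 1.7e-12), and its other probe set rose by 2.81. Guca2b, which encodes the gut peptide uroguanylin, behaved alike, with 80.4, 77.2 and 76.9 in the mutant arrays and 1.02, 11.4 and 1.69 in the WT arrays and 1.89 to 10.2 on the WT maxillary arrays (1.60 ± 0.18, adjusted p = 3.9e-06). Both genes were placed among 20 epithelial genes, of which no other was called. The summed deposited signals of the epithelial list, which include both genes, were 4156 to 4265 in mutant and 3821 to 3910 in WT arrays. The median log2 change of the list was 0.02, with 11 members above 0 and 9 below. The part of epithelium in these changes was not tested. Tmem30b, which encodes a subunit of lipid flippases, gave 442, 485 and 453 in the mutant arrays and 65.7, 60.9 and 62.5 in the WT arrays, 7.29 times the WT signal (2.35 ± 0.09). The kinase gene Sgk1, which responds to serum and glucocorticoid, rose by 1.18, with 495, 453 and 501 against 162, 249.95 and 185. The noncoding RNA Malat1 gave 1003, 954 and 856 in the mutant arrays and 193, 593 and 619 in the WT arrays, where WT replicate 1 stood apart (1.11 ± 0.24, adjusted p = 0.01). Its 6 other probe sets ran from -0.04 to 1.02 and none was called, and without less specific probe sets its change was -0.0185 (adjusted p = 0.98), so no direction is given for it.

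Transcription factors of the maxillary and proximal arch gave mostly rises: of 21 measured, 9 rose and 2 fell, with a median log2 change of 0.34. Pou3f3, a POU-domain factor of the upper jaw, led them with 1050.4, 946 and 1082 in the mutant arrays and 207, 219.6 and 193 in the WT arrays. The mutant mean was 4.97 times the WT mean (2.16 ± 0.09, limma adjusted p = 1.2e-13) and lay within the range of WT maxillary set 1, 935 to 1060.3, and above that of set 2, 748 to 983. The other Pou3f3 probe set gave 0.59 and was not called. Pantr1, a noncoding transcript beside Pou3f3, gave 337, 327 and 319 in the mutant arrays and 85.7, 59.2 and 49.3 in the WT arrays (1.90 ± 0.12). The forkhead gene Foxl2 gave 274, 331 and 309 in the mutant arrays and 79.0, 70.2 and 82.3 in the WT arrays (1.61 ± 0.10), and its antisense transcript Foxl2os gave 214, 255 and 239 against 67.1, 60.4 and 73.6 (1.43 ± 0.10). Both pairs of neighbouring transcripts thus rose together. Foxl2os and Foxl2 windows overlap on the genome, and whether the probes of either pair can share transcripts was not tested.

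The LIM homeobox gene Lhx6 gave 369, 437 and 453 in the mutant arrays and 185, 194 and 182 in the WT arrays (1.05 ± 0.09), and its relative Lhx8 rose from a higher WT signal, 1641, 1617 and 1619 against 1087, 1151 and 933 (0.60 ± 0.07). The Iroquois genes Irx5 and Irx3 rose by 1.04 and 0.87, and for Irx5 the signals were 278, 281 and 292 against 109, 126 and 131. Six2 rose by 0.91, Eya1 by 0.58 and Meis2 by 0.34. The other probe sets of Meis2 gave 0.16 to 0.20 and none was called. The 2 members that fell were Meis1, 129.5, 164 and 172 against 321, 285 and 319 (-0.84 ± 0.11, limma adjusted p = 1.7e-05), and Osr2, a palate gene (-0.78 ± 0.19, adjusted p = 0.025), whose call was lost in 5 of the 6 fits without 1 array (up to 0.16). Other probe sets of Meis1 gave -0.80 to 0.21. The ventral and maxillary lists hold genes partly known from published Dlx mutants, perhaps from these arrays, so their counts are not independent evidence of a direction.

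The 20 largest rises and the 20 largest falls were set beside the WT maxillary arrays, whose 2 sets stood apart in the spiked dap control. Its signal was 423 to 478 on the mandibular arrays, 471 to 507 in maxillary set 1 and 3612 to 3736 in set 2. Against set 1 the mutant mean of the rising genes lay above the range for 11, within it for 4 and below it for 5. Against set 2 this was 10, 7 and 3. Foxl2 and Irx5 were below both sets and Cyp26a1 above both, while Igf1 and Lhx6 were below set 1 and within set 2. The mutant mean of the falling genes lay above the range for 8, within it for 5 and below it for 7 against set 1, and for 10, 3 and 7 against set 2. Hand2, at 194 ± 6.91 (SD, n = 3) in the mutant, was above 9.41 to 17.0 in set 1 and 1.79 to 10.9 in set 2. Tbx22, at 73.0 ± 9.67, was below 109 to 146 and 137 to 173. These positions were not tested.

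**Figure D2:**
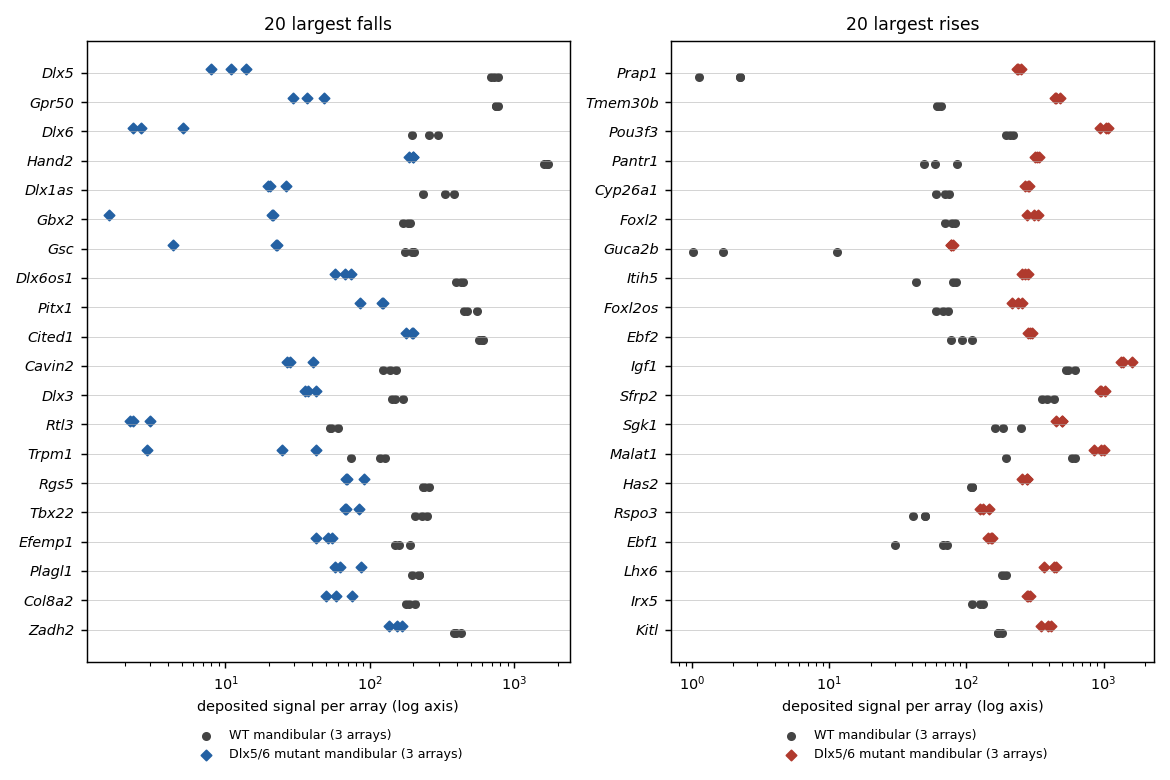
Deposited signal on a log axis for each of the 3 mutant arrays (coloured diamonds) and the 3 WT mandibular arrays (dark circles), for the 20 largest falls and the 20 largest rises. The genes were chosen to have no overlap between the groups. Dlx5, Dlx6 and Rtl3 are at single or low double digits in the mutant while Prap1 and Guca2b are so in WT.

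Some genes crossed the background level, taken as the 40th percentile of each array (16.2 to 18.9 units). On the mutant arrays 8 called genes lay below it throughout while being above it on all WT arrays. They were Dlx5, Dlx6, Dlx4, Dlx4os, Rtl3, Pcp4, Tnni2 and 3110099E03Rik. Rtl3, an X-linked gene derived from a retrotransposon, gave 2.29, 3.02 and 2.17 in the mutant arrays and 60.5, 53.8 and 52.9 in the WT arrays (-1.36 ± 0.15, limma adjusted p = 4.8e-06). Another 8 genes did the reverse: Prap1, Guca2b, Minar1, Abcb1b, Hsd11b1, Lrrc19, Chrna5 and Neurod1. Of these all but Prap1 and Guca2b stayed between 21.0 and 45.1 units in the mutant, close to background. The other Tnni2 probe set gave -0.28 and was not called. Hsd11b1, which encodes the enzyme that regenerates active glucocorticoid, gave 26.6, 29.0 and 45.1 in the mutant arrays and 8.59, 5.67 and 3.27 in the WT arrays. The calls of Pcp4, Tnni2, Minar1, Abcb1b, Hsd11b1, Lrrc19, Chrna5 and Neurod1 were each lost in at least 2 of the 6 fits without 1 array (adjusted p up to 0.17).

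Crest and arch mesenchyme factors changed in both directions, 6 of 23 higher and 4 lower. The Ebf genes, helix-loop-helix factors of mesenchyme, were split. Ebf2 gave 281, 290.2 and 302 in the mutant arrays and 77.3, 93.0 and 109.99 in the WT arrays (1.37 ± 0.11, limma adjusted p = 3.1e-08), and Ebf1 gave 145, 155 and 152 in the mutant arrays and 30.2, 68.0 and 71.9 in the WT arrays (1.07 ± 0.15). Ebf3 moved the other way, with 511, 470.1 and 574 in the mutant arrays and 785, 754 and 721 in the WT arrays (-0.52 ± 0.08). The zinc finger genes Tshz1 and Tshz2 fell by 1.06 and 0.76, and the homeobox gene Shox2 by 0.76. Twist1, Snai1, Prrx2 and Sox11, factors of the early mesenchyme, rose by 0.45, 0.56, 0.50 and 0.38. The call of Sox11 was lost in 4 of the 6 fits without 1 array (adjusted p up to 0.099) and that of Snai1 without mutant replicate 3 (0.05). Other probe sets gave 0.02 to 0.64 for Ebf1, 0.05 to 0.36 for Sox11 and -0.36 for Shox2, each with at most 1 called. Of 14 skeletal regulators and matrix genes, Sox5 rose (0.42) and Bgn (-0.50) and Sparc (-0.38) fell. The calls of Sox5 and Sparc were lost in 5 of the 6 fits without 1 array (adjusted p up to 0.2 and 0.17), and that of Bgn without mutant replicate 3 and without WT replicate 1 (up to 0.073).

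In the WNT pathway 6 of 42 measured genes rose and 4 fell. Sfrp2, a secreted WNT antagonist, gave 947, 956 and 1028 in the mutant arrays and 386, 437 and 357 in the WT arrays (1.26 ± 0.07, limma adjusted p = 7.0e-11). R-spondins, which strengthen WNT signals at the receptor, were split. Rspo3 gave 125, 132 and 147 in the mutant arrays and 49.9, 49.7 and 40.8 in the WT arrays (1.07 ± 0.12), whereas Rspo2 gave 314, 310.02 and 296 in the mutant arrays and 676, 733 and 718 in the WT arrays (-1.12 ± 0.09). Rspo2's other probe set changed by only -0.05. Rspo1 rose by 0.64, a call lost without mutant replicate 2, WT replicate 1 or WT replicate 2 (adjusted p up to 0.13). The inhibitors Dkk2 and Dkk1 fell by 0.86 and 0.58, with Dkk2 at 65.7, 41.9 and 57.1 against 104, 144 and 139. The nuclear effectors Tcf7l2 and Tcf7l1 rose by 0.54 and 0.43. The Tcf7l1 call was lost in 4 of the 6 fits without 1 array (adjusted p up to 0.11) and the Tcf7l2 call without mutant replicate 1 (0.08). Their other probe sets gave -0.05 to 0.16 for Tcf7l2 and 0.14 for Tcf7l1, and none was called.

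In the retinoic acid pathway 1 of 16 rose and 1 fell. Cyp26a1, the enzyme that breaks down retinoic acid, gave 282, 267 and 286 in the mutant arrays and 60.02, 74.5 and 70.1 in the WT arrays (1.62 ± 0.10, limma adjusted p = 1.1e-10), 4.08 times the WT signal. Aldh1a2, the enzyme that makes it, gave 67.9, 31.9 and 58.6 in the mutant arrays and 122, 85.4 and 105 in the WT arrays (-0.68 ± 0.16, adjusted p = 0.022). The Aldh1a2 call was lost without mutant replicate 2, WT replicate 1 or WT replicate 3 (up to 0.18). Of 34 BMP and TGF-beta genes, Bmper, a secreted modulator (11.4, 0.986 and 28.6 against 63.7, 68.5 and 73.0), and Bambi, a decoy receptor (398, 385 and 435 against 721, 719.7 and 721), fell by 1.17 and 0.78, and none rose. In the FGF list of 20, Dusp6 and Spry2, feedback inhibitors of FGF signalling, rose by 0.50 and 0.39, and Flrt2 fell by 0.46. Dusp6 was at 1739.6, 1742 and 1762 against 1280.5, 1195 and 1179, with narrow groups. The Spry2 call was lost in 4 of the 6 fits without 1 array (up to 0.13). Other probe sets of Spry2 (0.01) and Flrt2 (-0.32 to 0.00) were not called.

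No call was made among 12 hedgehog genes, where Ptch1 changed by 0.06 ± 0.06, or among 13 endothelin pathway genes. Ednra, also on the endothelin list, was not measured. Over all genes 3.16% were called, so lists of this size would hold few calls or none. The endothelin pathway is known to act upstream of Dlx5 and Dlx6, and its genes Gnaq and Gna11 changed by 0.11 ± 0.09 and 0.24 ± 0.08 (limma adjusted p = 0.69 and 0.17). In the Notch list of 17, Hey1 alone was called (0.48 ± 0.12, adjusted p = 0.027), and the call was lost in 4 of the 6 fits without 1 array (up to 0.16). Gas1, a hedgehog co-receptor, gave 0.38 ± 0.10 with an adjusted p of 0.054, and it was called under 6 other settings, among them the fit without WT replicate 3 (0.55, adjusted p = 3.3e-04).

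Growth factor genes of the IGF axis moved apart. Igf1 rose, with 1624, 1383 and 1343 in the mutant arrays and 623, 553 and 533 in the WT arrays (1.31 ± 0.09, limma adjusted p = 6.3e-10), and its 3 other probe sets rose by 1.31, 1.19 and 1.37. Igf2 fell, with 3558, 3222 and 3333 in the mutant arrays and 5671, 5768 and 5184 in the WT arrays (-0.81 ± 0.07, adjusted p = 7.3e-08). The groups were separate for both genes, but the other Igf2 probe set gave -0.34 and was not called. Of the 17 genes in the list of the IGF axis and imprinted growth genes, 6 fell, and Igf1 was the only one to rise. Meg3, an imprinted noncoding RNA, fell by 0.63, Cdkn1c, an inhibitor of the cell cycle, by 0.35, and Ndn by 0.31. Peg3 gave 3344, 3437 and 3254 in the mutant arrays and 3487, 5143 and 4931 in the WT arrays, where WT replicate 1 lay near the mutant arrays (-0.49, adjusted p = 0.0063), and without WT replicate 2 its adjusted p was 0.058. Plagl1, an imprinted zinc finger gene placed in the ventral list, gave 86.3, 56.9 and 62.1 in the mutant arrays and 217, 196 and 217 in the WT arrays (-1.24 ± 0.19). The 10 other probe sets of Meg3 gave -0.86 to 0.00, with 4 called lower, and the 2 of Plagl1 gave -0.74 to -0.14, with 1 called. Kitl, which encodes the ligand of the Kit receptor, rose by 1.03, with 349.8, 393 and 415 against 170.4, 180.3 and 171, while its 3 other probe sets gave 0.21 to 0.52 and none was called.

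Guidance, adhesion and matrix genes gave further members in both directions. Of 33 axon guidance and ephrin genes 5 fell and 1 rose. The netrin receptor gene Unc5c gave 121, 92.3 and 103 in the mutant arrays and 307, 266 and 279.6 in the WT arrays (-1.17 ± 0.11, limma adjusted p = 3.3e-07). The ephrin receptor genes Epha3 (-0.57) and Epha4 (-0.45) fell, and the semaphorin and VEGF receptor gene Nrp1 rose, with 559, 586 and 475 against 365, 309 and 359.96 (0.61). The ephrin gene Efnb2 and the semaphorin receptor gene Plxna2 fell by 0.53 and 0.47. The calls of Epha4, Efnb2 and Plxna2 were lost in 4, 3 and 5 of the 6 fits without 1 array (adjusted p up to 0.14, 0.23 and 0.12). Other probe sets gave -0.14 to 0.28 for Epha4 and -0.24 to -0.04 for Efnb2, and none was called. The chemokine gene Cxcl14 fell by 0.83, with 164, 174 and 163 against 354, 309.5 and 319, while Cxcl12 and its scavenger receptor Ackr3 rose by 0.37 and 0.49. The other Cxcl12 probe sets gave 0.11 to 0.23 and none was called.

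Among 22 collagen genes 4 rose and 4 fell. Col1a2, a chain of type I collagen, gave 1731, 1754 and 1807 in the mutant arrays and 1064, 966 and 968 in the WT arrays (0.80 ± 0.07, limma adjusted p = 2.9e-08). Col9a1, a cartilage collagen, fell from a brighter WT signal, 1918, 1884 and 1790.5 against 2617, 2429 and 2819 (-0.51 ± 0.06). Of 29 matrix glycoprotein and protease genes 4 rose and none fell. Has2, which encodes a hyaluronan synthase, gave 254, 275 and 276 in the mutant arrays and 109, 109 and 108 in the WT arrays, with WT arrays nearly identical (1.10 ± 0.09). Itih5, of the family whose proteins bind hyaluronan, gave 280.1, 267 and 253 in the mutant arrays and 84.2, 79.5 and 42.7 in the WT arrays (1.59 ± 0.14), and Vcan, a proteoglycan that also binds it, rose by 0.25. The Vcan call was lost in 4 of the 6 fits without 1 array (adjusted p up to 0.12). Of 23 cadherin and integrin genes, Itga9, Itgb5 and Cdh11 were among the 4 that rose (0.63, 0.45 and 0.31), and Pcdh19 and Cdh6 fell (-0.62 and -0.61). The Cdh11 call was lost in 4 of the 6 fits without 1 array (up to 0.07). Other probe sets gave 0.04 to 0.65 for Col1a2, 0.47 to 0.90 for Itih5 and -0.03 to 0.33 for Vcan, each with 1 called, -0.69 to -0.30 for Pcdh19 with 1 called, and 0.10 to 0.14 for Itga9 with none.

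Markers of other cell types were read beside these changes, and the sums given are of deposited signals before normalization. Such sums also lay apart for lists without a call. The hedgehog list summed to 8193 to 8605 in mutant and 7082 to 8093 in WT arrays. A gap between sums therefore does not by itself set a cell type apart. Of 15 macrophage genes 1 was called, Csf1r, the macrophage growth factor receptor gene, which rose (0.59 ± 0.09, limma adjusted p = 4.1e-04). The other Csf1r probe sets gave 0.18 to 0.51 and none was called. The summed signals of the list did not overlap, 812 to 857 in mutant and 550 to 564 in WT arrays, and 14 of 15 log2 changes were above 0, with a median of 0.33. Muscle and arch mesoderm genes summed to 710 to 784 in mutant and 908 to 919.7 in WT arrays, and Myf5, a muscle determination gene, was the 1 of 14 called, with 16.6, 22.4 and 11.0 against 46.9, 63.3 and 69.4 (-0.92 ± 0.16). Sensory neuron genes summed to 1530 to 1644 and 1400 to 1485, and 2 of 16 were called higher, Sst and Neurod1. Both were dim and lost their call in most fits without 1 array (adjusted p up to 0.24 and 0.077). Sst was also the 1 called of 3 measured GABA neuron genes. No call was made among 14 endothelial, 5 glial, 8 primitive red cell, 7 pharyngeal endoderm or 4 forebrain genes. At the 3.16% called over all genes, lists this short would hold few calls or none. The red cell genes summed to 26049.9 to 29644 in mutant and 23890.5 to 24813 in WT arrays. After normalization their median log2 change was -0.025, with 4 above 0 and 4 below. What part these cells had in the other changes was not tested.

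None of 17 replication and mitosis genes was called, with Pcna at 0.07 ± 0.04 and Rrm2 at 0.08 ± 0.06, although Pcna was called higher when arrays were shifted to a common median over the filtered probe sets (0.25) or kept at the deposited scaling (0.23). None of 13 cell death genes was called, with Bcl2l11 at 0.23 ± 0.12. At the share of 3.16% called over all genes, few or no calls would fall in lists of these sizes. Among 14 G1 regulators the D-type cyclins were split. Ccnd2 gave 4527, 4834 and 4479 in the mutant arrays and 3073, 3124 and 3015 in the WT arrays (0.49 ± 0.05, limma adjusted p = 2.9e-07), and Ccnd1 gave 1388, 1313 and 1238 in the mutant arrays and 1567, 1778 and 1917 in the WT arrays (-0.42 ± 0.07, adjusted p = 9.0e-04). The 2 other probe sets of Ccnd1 gave -0.36 to -0.12, with 1 called. Myc rose by 0.58. The immediate early gene Ier2 rose by 0.72, with 978, 1116 and 1073 against 634, 645 and 606, and the 8 other genes of that list were not called. Of 13 hypoxia and glycolysis genes Egln3 fell (-0.65, other probe set -0.30), a call lost in 3 of the 6 fits without 1 array (adjusted p up to 0.27).

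**Figure D3:**
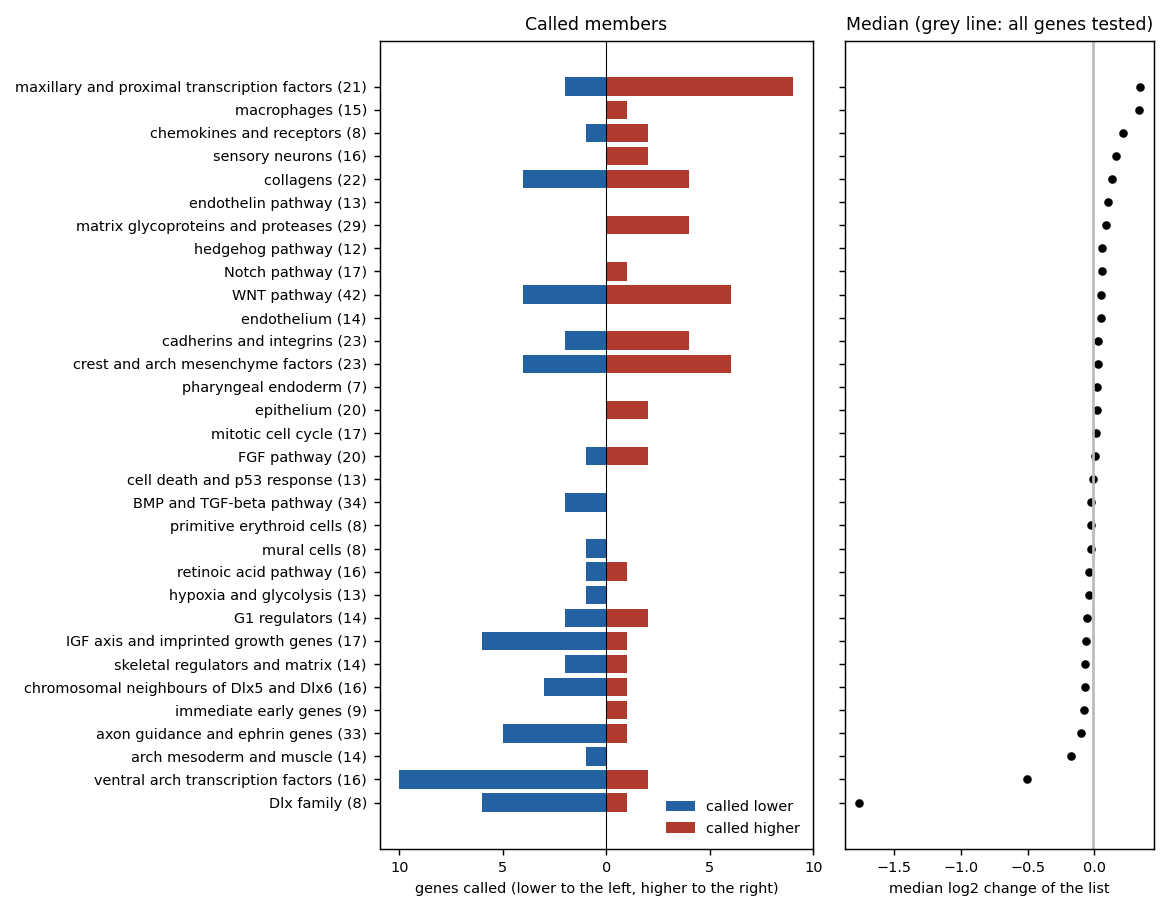
Left, the number of members called lower (blue) and higher (red) in each of the 32 gene lists with at least 7 measured members, given in brackets. Right, the median log2 change of each list as a point, with the median of all genes as a grey line. The Dlx and ventral lists lie lowest, at -1.77 and -0.51, and the maxillary and macrophage lists highest, at 0.34 and 0.33.

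Genes that lie beside Dlx5 and Dlx6 on mouse chromosome 6 were read together, since the mutant's label names that locus. Of 16 measured, 3 were lower and 1 higher. Tac1, which encodes substance P, gave 20.9, 28.0 and 4.81 in the mutant arrays and 52.5, 79.2 and 47.0 in the WT arrays (-0.89 ± 0.19, limma adjusted p = 0.0097), and its other probe set gave 0.23. Sem1, a proteasome subunit gene close to the pair, gave 3285, 3322 and 3098 in the mutant arrays and 3468, 3918 and 4241 in the WT arrays (-0.32 ± 0.06), and its other probe set gave -0.04. Asb4 fell by 0.31, a call lost in all 6 fits without 1 array (adjusted p up to 0.15), and Tac1 lost its call without mutant replicate 3 or WT replicate 2 (up to 0.085). Col1a2 was the neighbour that rose. Slc25a13 and Sdhaf3 were not called (0.08 and -0.11).

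Gene families were formed from gene symbols that share a stem and end in a number, after the values had been seen. Of 41 such families with at least 2 called members, 24 had calls in both directions, 8 only rises and 9 only falls. Without 5 stems that name unrelated or loosely related genes (Akap, Atp, Lrrc, Tmem, Zfp) it was 19 of 36. Calls over all genes were equally divided between the directions, so the number of split families is not read as a result. Besides genes given above, Cited2 rose (0.59) while Cited1 fell, Tbx18 rose (0.83) while Tbx22 fell, and the glypican genes Gpc4 and Gpc3 gave 0.41 and -0.32. The Gpc4 call was lost in 4 of the 6 fits without 1 array (limma adjusted p up to 0.24). The other probe set of Cited2 gave 0.29 and was not called. Families with falls alone included Hand, Dkk, Epha, Rgs and Tshz, and families with rises alone included Irx, Lhx and Shisa.

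**Figure D4:**
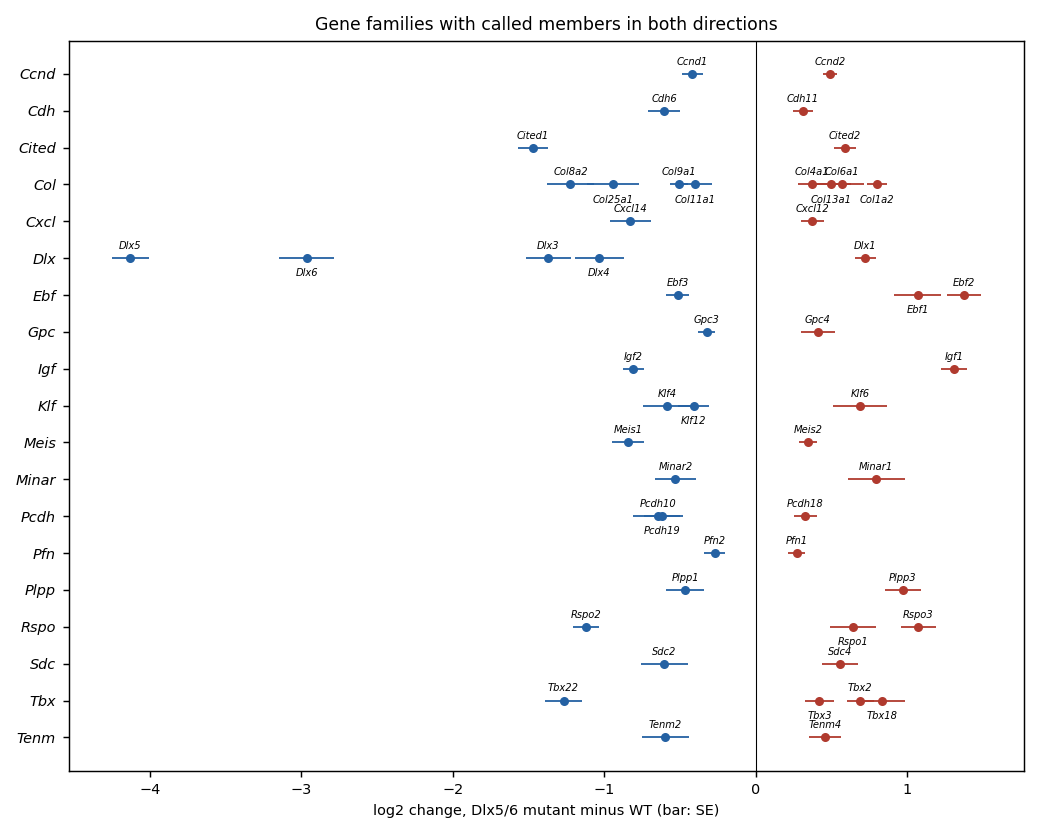
Log2 change (mutant minus WT, horizontal axis, bars are the SE) of each called member in 19 of the 24 families with called members in both directions. The other 5 were left out because their shared stem (Akap, Atp, Lrrc, Tmem, Zfp) names unrelated or loosely related genes. Igf1 and Igf2, at 1.31 and -0.81, and Rspo3 and Rspo2, at 1.07 and -1.12, lie on opposite sides of 0.

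By chromosome, falls were most frequent among X-linked genes, a grouping that was also chosen after the values had been seen. Of 459 X-linked genes tested 27 were lower (5.88%) and 7 higher (1.53%), against 1.43% lower and 1.59% higher among 13437 autosomal genes. Chromosome 3 came next, with 3.56% of 674 genes lower. The X-linked falls held Gpr50, Cited1, Rtl3 and Tbx22, and also bright genes with narrow groups. Itm2a, which encodes a membrane protein of chondrocytes and muscle, gave 1661, 1571 and 1671 in the mutant arrays and 3444, 3334 and 3366 in the WT arrays (-1.08 ± 0.06, limma adjusted p = 1.6e-11). Capn6, a calpain gene that lacks protease activity, gave 1196, 1213 and 1252 in the mutant arrays and 2304, 2294 and 2399 in the WT arrays (-0.93 ± 0.06, adjusted p = 3.8e-10). Leaving out each array in turn left 20 to 26 X-linked genes lower and 1 to 3 higher. Xist, the noncoding RNA that silences 1 X chromosome in females, gave 297, 258 and 249 in the mutant arrays and 266, 666 and 614 in the WT arrays, with WT replicate 1 among the mutant values (-0.77 ± 0.19, adjusted p = 0.023). It lost its call without mutant replicate 2, mutant replicate 3, WT replicate 2 or WT replicate 3 (up to 0.16). The Y-linked genes Eif2s3y, Kdm5d and Uty were not called (0.41, 0.24 and 0.13), nor were Kdm6a, Kdm5c, Ddx3x and Eif2s3x, X-linked genes that escape silencing. The part of the embryos' sex in the X-linked falls was not tested.

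**Figure D5:**
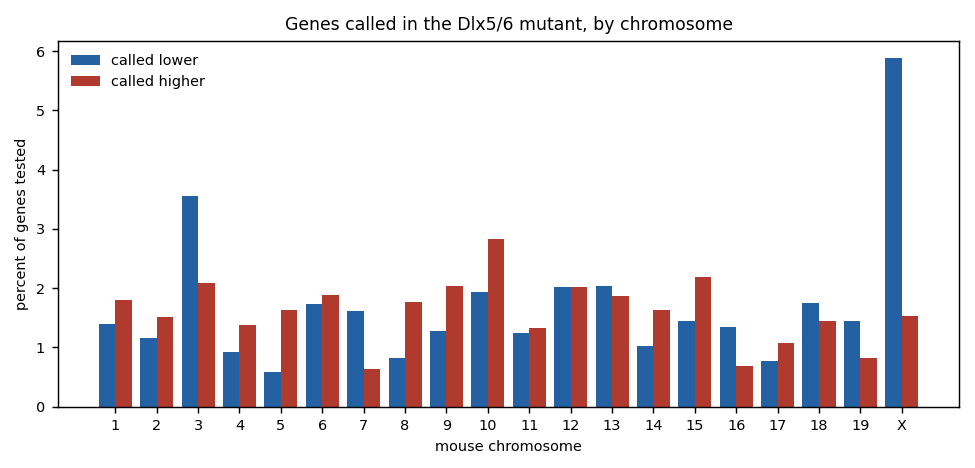
Percent of tested genes on each mouse chromosome that were called lower (blue) and higher (red) in the mutant. The X chromosome has the highest share of falls, 5.88%, and chromosome 3 the next, 3.56%.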

How the data were processed

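Total RNA of E10.5 arch branches was measured on 15 Affymetrix arrays, 3 in each of 5 groups. The deposited values are intensities per probe set, and in them the trimmed mean (2% removed at each end) was 150 on each array, which is how the values show that the authors scaled them. The scanner software and the summary method are not given in the sources used here, and the deposited detection calls were not used. From the deposited intensity, log2(signal + 32) was taken and quantile normalized over the 15 arrays. Probe sets above the 40th percentile of the array on at least 3 arrays were kept (31643 of 45101, 64 controls left out). A limma 3.58.1 model (R 4.3.3) with 1 mean per group, an intensity trend and 10 residual degrees of freedom gave mutant minus WT, with Benjamini-Hochberg adjustment over all kept probe sets and a call at 0.05. A gene was represented by its kept probe set of highest mean level among those with 1 gene symbol. Probe sets ending in _x_at or _s_at were used only where no other was kept. The precision is limited by 3 arrays per group.

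The genes to name were the 20 largest rises and falls without overlap, the Dlx genes, up to 5 called members of each list (where none was called, up to 2 of highest level), and up to 8 called genes each way that crossed the 40th percentile. The members and lists were chosen with earlier results of these data known. The labels did not say whether replicate numbers pair the samples, and the arrays were not treated as pairs. Same-numbered arrays had residual correlations of -0.067, -0.0265 and -0.0147. Such values over all kept probe sets cannot settle whether the numbers pair the arrays for some genes. Alternatives changed the scaling, the added constant, the filter, the arrays fitted, the variance model, the threshold and the probe sets, and left out each array in turn. Chromosomes and promoters came from RefSeq tables of GRCm38.p6.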

Additional observations from a re-analysis of the deposited data

How the results depend on the processing

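Of the called genes that a setting shared with the reported result, none changed direction under any setting tried. This was nearly fixed in advance, since both calls came from the same arrays. Leaving out 1 array lost 135 to 163 of the 440 calls. The counts were 841 probe sets (445 higher, 396 lower) and 440 genes (220 and 220). Without the intensity trend they were 452 (226 and 226) and 248 (122 and 126), at an adjusted p under 0.01 they were 394 (200 and 194) and 233 (115 and 118), and with limma's treat against a 1.2-fold change they were 159 (72 and 87) and 104 (49 and 55). The stricter threshold and treat lower a count by construction, and for the trend the cause was not tested. Leaving out each array in turn gave 502 to 654 probe sets (269 to 366 higher, 228 to 334 lower) and 289 to 358 genes (140 to 180 higher, 138 to 186 lower). With the replicate number as a block, 779 probe sets and 409 genes were called, 399 of them among the 440, and no array correlated best with its own number. The share of higher probe sets was 57.3% at the deposited scaling, 63.3% with a common median over the filtered probe sets and 48.0% with that median over every probe set, an alternative chosen after seeing the data. Malat1 was the named gene whose sign turned, to -0.0185 without less specific probe sets, which replaced its probe set. The medians of the mesenchyme, BMP, FGF, red cell, epithelium, endoderm and mitosis lists changed sign under at least 1 setting and have no direction. Dim genes had the largest errors, so small changes there were not detectable with these arrays.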

Other observations

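Several gene groups were noticed in the called genes and listed only after their values had been seen, so they have no test and are given as values. Over all genes 1.58% were called higher and 1.58% lower, and lists drawn up from called genes hold more by construction. Genes of sterol and fatty acid synthesis were higher in the mutant for 25 of 25 measured members, with 9 called and a median log2 change of 0.27. Hmgcs1, an early enzyme of cholesterol synthesis, gave 5099, 5509 and 5092 in the mutant arrays and 3479.7, 3746 and 3605 in the WT arrays (0.42 ± 0.05, limma adjusted p = 2.9e-05). Scd1, a fatty acid desaturase gene, gave 0.46 ± 0.08, and the isoprenoid enzyme genes Idi1 and Fdps gave 0.42 and 0.31. The calls of Insig1, Fasn, Elovl6, Idh1 and Nsdhl were each lost in at least 3 of the 6 fits without 1 array (adjusted p up to 0.2). Other probe sets gave -0.25 to 0.61 for Elovl6, -0.07 for Idh1 and 0.15 to 0.40 for Hmgcs1, with 3 of 4 called for Hmgcs1. Of 22 genes listed for the nucleolus and ribosome assembly 6 were called higher and none lower. The median was 0.06, with 15 above 0 and 7 below. The 6 include Odc1 (0.24), which encodes an enzyme of polyamine synthesis and is not a nucleolar gene. Its other probe sets gave -0.02 to 0.12 and none was called. Npm1, Ncl and Fbl were not called (-0.04, -0.06 and 0.06). Nop16 and Pa2g4 gave 0.42 and 0.42, but the 4 other probe sets of Pa2g4 gave -0.17 to 0.12 with none called, and the Nop16 call was lost in 4 of the 6 fits (up to 0.14).

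Among genes known to respond to YAP and SRF, 8 of 17 were called lower and none higher, against 1.58% lower over all genes. The median was -0.32, with 12 below 0 and 5 above. Acta2 (0.01), Tagln (0.05), Vcl (0.16) and Srf (0.14) were not called. Nor was Ccn1 (-0.29), whose other probe sets gave 0.03 to 0.44. Ccn2, a matrix signalling gene, gave 247, 191 and 196 in the mutant arrays and 394, 369.6 and 382 in the WT arrays (-0.75 ± 0.12, limma adjusted p = 2.8e-04), and Csrp2 gave -0.40 ± 0.06. The calls of Emp1, Nexn, Ahnak, Axl, Thbs1 and Flna were each lost in at least 1 of the 6 fits without 1 array (adjusted p up to 0.2), and the other Thbs1 probe set gave -0.20. A wider list of imprinted genes had 12 of 31 called lower and none higher, against 1.58% lower over all genes. The median was -0.25, with 25 below 0 and 6 above. Peg10 (0.21), Igf2r (0.15), Grb10 (-0.01) and Impact (-0.04) were not called. Beyond Igf2, Plagl1 and Meg3 the list held Igf2os (-0.96 ± 0.15), which overlaps Igf2, and the small falls of Nnat (-0.32) and Mest (-0.21). The deposited signals of Mest overlapped, with 6749, 7468 and 6978 in the mutant arrays and 7236, 7105 and 7622 in the WT arrays. The calls of Magel2 and Mirg were lost in 2 and 6 of the 6 fits (up to 0.1 and 0.12).

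WT replicate 1 stood below the other WT arrays for Malat1 and Xist, as given above, and for Thoc2, which gave 708, 807 and 679 in the mutant arrays and 281, 559 and 585 in the WT arrays. The 2 other Thoc2 probe sets gave -0.13 to 0.23 and none was called.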
